A study of Rattus norvegicus with 20 samples.

Results

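The 10 genes described here are Fos, Fosb, Fosl1, Fosl2, Jun, Junb, Jund, Egr1, Nr4a1 and Klf4. They are grouped here as immediate-early transcription factor genes of the rat. They were chosen by name, with earlier results of these data known. Their rows were found in the deposited gene table by the gene name that each row carries or by the gene of its protein accession. Of the 10, 9 had a row among the 15503 genes of the table and passed the filter on low counts; Junb was not analysed here. RNA sequencing had been run on cultures labelled as neonatal rat cardiomyocytes, which are the beating cells of the newborn heart, in 4 groups of 5 libraries, all sampled at 72 h. The groups were cultures given histidine at 100 nM together with doxorubicin at 1 µM, doxorubicin at 1 µM alone, histidine at 100 nM alone, or phosphate-buffered saline (PBS). Doxorubicin is an anthracycline cancer drug that is toxic to the heart, and histidine is an amino acid; the design asks for the cardiac effect of histidine, alone and beside the drug. No genotype, strain or animal is named for the cultures, and nothing in the labels states that libraries of a group stem from separate cultures, so every p-value measures the spread between libraries, which may be technical.

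Immediate-early genes are transcribed within minutes of a stimulus because the factors that switch them on, such as SRF and CREB, are already present and are activated by MAP kinases and calcium signals. Their transcripts are short-lived, so levels at late times need not show the first burst. What the levels at 72 h reflect was not tested. Not every gene of the set need meet this description, and Jund is expressed steadily in most cells. FOS and JUN family proteins pair through leucine zippers to form AP-1, which binds DNA at the sequence TGANTCA. FOS proteins need a JUN partner, whereas JUN proteins also pair with each other. EGR1 is a zinc finger factor that binds GC-rich sites, NR4A1 is an orphan nuclear receptor, and KLF4 is a zinc finger factor known to slow cell division. In heart cells stretch, adrenergic signals and serum are known inducers of Fos, Jun and Egr1.

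The sequence upstream of a gene's start holds some of the sites through which such a gene is induced. The RefSeq promoter table of rat assembly GRCr8 held windows of 250 bases before the start for 7 of the 9 genes with a row. Fos and Jun had no window and were not searched. The 3 windows printed here belong to genes whose levels differ in pattern from each other. Capitals mark CArG boxes, the element bound by SRF, and the letters CGTCA, the core of the cAMP response element, on either strand. The windows are Fosl1 at chr1:212183635-212183884, Egr1 at chr18:26736828-26737077 and Nr4a1 at chr7:134259888-134260137, all on the plus strand.
Fosl1: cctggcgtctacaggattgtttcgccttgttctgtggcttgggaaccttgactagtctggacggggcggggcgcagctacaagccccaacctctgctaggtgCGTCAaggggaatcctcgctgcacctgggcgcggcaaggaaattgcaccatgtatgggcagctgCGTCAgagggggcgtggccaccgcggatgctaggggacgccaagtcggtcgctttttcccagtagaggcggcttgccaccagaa
Egr1: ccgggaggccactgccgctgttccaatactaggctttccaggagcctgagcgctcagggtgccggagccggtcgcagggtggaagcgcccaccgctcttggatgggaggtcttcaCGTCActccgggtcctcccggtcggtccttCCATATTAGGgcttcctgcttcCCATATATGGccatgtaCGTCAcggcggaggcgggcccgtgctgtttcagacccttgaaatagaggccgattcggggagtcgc
Nr4a1: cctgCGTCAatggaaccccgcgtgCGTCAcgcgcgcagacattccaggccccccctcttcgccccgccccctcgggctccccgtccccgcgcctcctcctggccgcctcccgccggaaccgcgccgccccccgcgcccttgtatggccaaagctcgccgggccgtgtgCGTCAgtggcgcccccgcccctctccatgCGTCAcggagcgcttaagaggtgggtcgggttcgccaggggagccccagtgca

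Counted in bases before the start, the Egr1 window held CArG boxes at -105 and -83 and CGTCA at -135 and -66. No other of the 7 windows held a CArG box, and Fos and Jun had no window to search. Of 27457 rat promoters of the same length, 1.50% held one. The Nr4a1 window held CGTCA at -246, -226, -82 and -53, and one match to GCGNGGGCG, the letters EGR proteins prefer, at -73. In Fosl1 CGTCA stood at -148 and -84. Jund held it at -221, -218 and -98, the first 2 of these inside a full TGACGTCA at -221, and GCGNGGGCG at -139, -76 and -31; Fosl2 held GCGNGGGCG at -249. The AP-1 sequence TGANTCA was in none of the 7 windows. Both strands were searched, and the shares of all promoters were 19.0% for CGTCA, 1.70% for TGACGTCA, 6.36% for TGANTCA and 4.53% for GCGNGGGCG. A match describes letters only and says nothing of a factor's binding.

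Library totals ran from 53246205 to 83624651 counts, and levels are given below as CPM, counts scaled to library size by trimmed mean of M values (TMM). Libraries with and without doxorubicin separated on the first principal component. Doxorubicin replicate 4 stood apart on the second, at 107.9 against -18.9 to 9.0 for the other libraries, and it carries the highest Jund and Fosl1 values of its group, while doxorubicin replicate 3 carries the lowest Fos, Fosb and Nr4a1 values. For genes whose change or call turned on these libraries, values without them are given too. The cardiomyocyte label was checked against 11 markers of contractile cells: all were detected in every group, but their summed level was low. It was 191 to 218 CPM with both compounds, 179.6 to 290.5 CPM with doxorubicin, 934.5 to 1101 CPM with histidine and 1038 to 1180 CPM with PBS, where it made up 0.109% of counts. The 10 fibroblast markers summed to 48060 to 61790 CPM with both compounds, 32890 to 57400 CPM with doxorubicin, 60160 to 79790 CPM with histidine and 75800 to 83490 CPM with PBS, where they made up 8.12% of counts. The 9 macrophage and leukocyte markers summed to 44.9 to 60.6 CPM with both compounds, 45.2 to 73.8 CPM with doxorubicin, 1577 to 2076 CPM with histidine and 1627 to 1686 CPM with PBS. All 11 cardiomyocyte and all 9 macrophage and leukocyte markers fell with doxorubicin against PBS, as did 4 of 10 fibroblast, 5 of 8 smooth muscle and pericyte, 4 of 7 endothelial and 0 of 5 epicardial markers, while 2 fibroblast, 1 smooth muscle and pericyte, 2 endothelial and 3 epicardial markers rose. Of all genes tested, 21.4% fell and 21.6% rose in that comparison, and no marker list was tested against these shares. No marker was without reads throughout a group. Because these are bulk cultures, fewer cells of a type and less RNA per cell cannot be told apart, and the part of cell composition in the changes below was not tested.

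To compare the genes with each other, the deposited FPKM values, which correct for gene length, were used. With both compounds Egr1 at 95.8 ± 8.25 FPKM and Klf4 at 81.6 ± 6.66 FPKM were the most abundant (SD, n = 5 each) and overlapped each other, and Klf4 did not overlap Jund at 65.5 ± 9.80 FPKM. With doxorubicin Jund, Klf4 and Egr1 averaged 97.9 ± 53.1, 88.2 ± 12.5 and 87.0 ± 19.7 FPKM (SD, n = 5 each), with overlapping ranges. Jund stood at 192.6 FPKM in replicate 4, the others lying at 70.4 to 80.7 FPKM, and by median level the order was Egr1 at 97.5, Klf4 at 89.3 and Jund at 74.7 FPKM. With histidine alone Jund at 71.2 ± 6.34 FPKM stood above Egr1 at 55.1 ± 4.25 FPKM without overlap. With PBS Jund at 74.2 ± 4.74 FPKM and Egr1 at 72.7 ± 6.42 FPKM overlapped at the top. Below them in PBS, Klf4, Fosl2, Fos and Jun had means between 17.6 and 20.3 FPKM, each overlapping the next, followed by Nr4a1 at 12.9 ± 0.792 FPKM and Fosl1 at 9.15 ± 0.328 FPKM, which overlapped neither neighbour. In the other 3 groups the genes ranked below Fosl2 and above Fosb had neighbouring ranges that overlapped. Fosb was last everywhere, at 0.404 ± 0.133 FPKM with both compounds, 0.341 ± 0.182 FPKM with doxorubicin, 0.922 ± 0.286 FPKM with histidine and 1.01 ± 0.319 FPKM with PBS (SD, n = 5 each). It rested on 41 to 134 reads per doxorubicin library and 147 to 306 reads per PBS library.

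**Figure D1:**
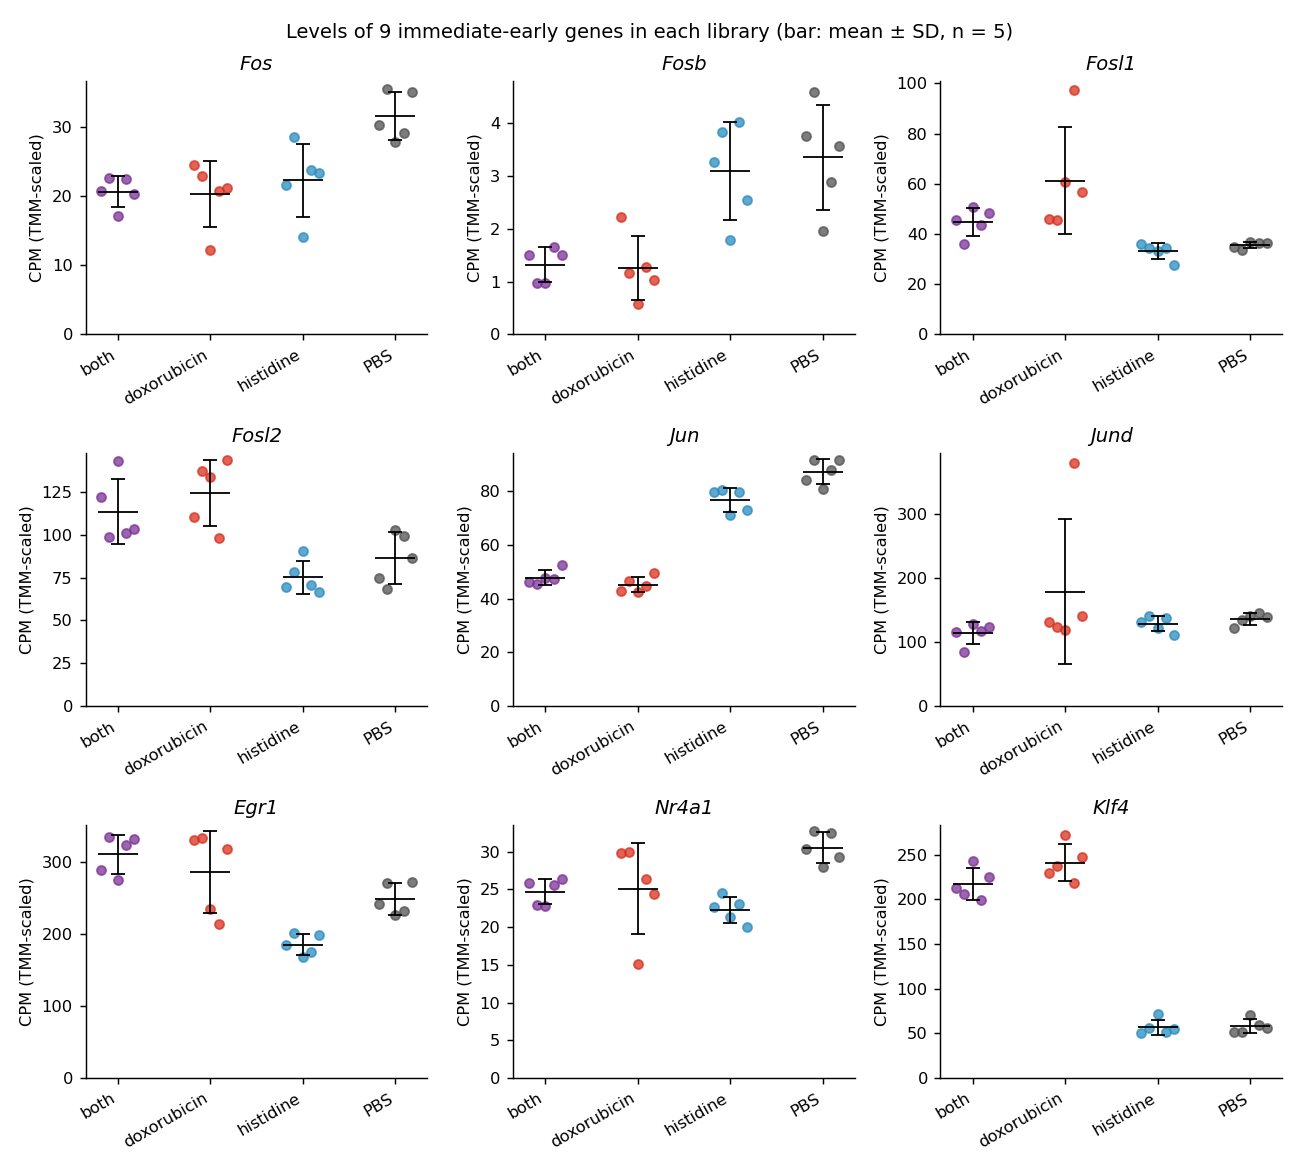
Level of each of the 9 genes in TMM-scaled CPM (vertical axes from 0), 1 point per library, with the mean and SD of 5 libraries per group. Klf4 lies between 199 and 272 CPM in the groups with doxorubicin and between 50.8 and 71.4 CPM in those without, and a single doxorubicin library carries Jund at 380.2 CPM.

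Doxorubicin alone changed the set in both directions. Klf4, Fosl1 and Fosl2 rose and Jun, Fosb and Fos fell, so 6 of the 9 genes passed edgeR's quasi-likelihood test at an adjusted p under 0.05, where 43.0% of all 15449 genes tested did (21.6% higher, 21.4% lower). Jund, Egr1 and Nr4a1 did not pass. In 4 of the 9 genes the doxorubicin and PBS libraries did not overlap, which held for 31.1% of all genes tested (13.6% higher, 17.5% lower). The median log2 change of the 9 genes was 0.20, beside 0.05 over all genes.

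Klf4, whose product is known to restrain cell division and to shape the identity of smooth muscle cells, had the largest change of the 9. It stood at 229, 237, 272, 218 and 247 CPM in the doxorubicin libraries, against 51.3, 51.35, 70.5, 59.7 and 56.1 CPM in the PBS libraries. All doxorubicin libraries were far above all PBS libraries. The means were 240.7 ± 20.6 CPM and 57.8 ± 7.93 CPM (SD, n = 5 each), a 4.16-fold rise (log2 change 2.06 ± 0.10 SE, edgeR adjusted p = 3.02e-12). The gene lies at chr5:70278972-70283602 on the minus strand of mRatBN7.2 (ENSRNOG00000016299).

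Among the FOS genes the balance moved away from Fos and Fosb. Fos, the founding member, had 24.5, 22.9, 12.3, 20.7 and 21.2 CPM with doxorubicin, against 30.3, 35.5, 27.8, 29.2 and 35.05 CPM with PBS. Every doxorubicin library was below every PBS library, the lowest being doxorubicin replicate 3. Fos fell 1.55-fold (log2 change -0.64 ± 0.17 SE, edgeR adjusted p = 0.00474), and without doxorubicin replicates 3 and 4 the log2 change was -0.47 (edgeR adjusted p = 0.0232). Fosb, a close relative of Fos with a strong activation domain, averaged 1.25 ± 0.606 CPM with doxorubicin and 3.35 ± 0.992 CPM with PBS (SD, n = 5 each), a 2.68-fold fall (log2 change -1.42 ± 0.31 SE, edgeR adjusted p = 0.000914). Of its doxorubicin libraries 4 were below all PBS libraries and 1 overlapped them. In mRatBN7.2 Fos lies at chr6:105121170-105124036 on the plus strand and Fosb at chr1:78954115-78961465 on the minus strand.

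The other FOS genes, Fosl1 (FRA-1) and Fosl2 (FRA-2), encode proteins without the strong activation domain of FOS, and both rose. Fosl1 had 46.1, 45.4, 60.5, 97.5 and 56.9 CPM with doxorubicin, against 34.98, 33.7, 36.9, 36.2 and 36.6 CPM with PBS. All doxorubicin libraries were above all PBS libraries, and replicate 4 stood well above the rest. The log2 change was 0.78 ± 0.16 SE (1.72-fold, edgeR adjusted p = 0.000392); without doxorubicin replicates 3 and 4 it was 0.47 (edgeR adjusted p = 0.00073). Fosl2 averaged 124.5 ± 19.3 CPM with doxorubicin and 86.4 ± 14.9 CPM with PBS (SD, n = 5 each), a 1.44-fold rise (log2 change 0.53 ± 0.13 SE, edgeR adjusted p = 0.00342). Replicate 4, at 98.3 CPM, was the only doxorubicin library of Fosl2 within the PBS range of 68.6 to 102.7 CPM. In mRatBN7.2 Fosl1 lies at chr1:202754529-202764930 on the plus strand and Fosl2 at chr6:24300956-24320034 on the minus strand.

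Of the JUN genes, Jun fell and Jund did not pass. Jun, the partner with the strongest activation domain, had 43.0, 46.5, 42.3, 44.8 and 49.6 CPM with doxorubicin, against 84.3, 91.5, 80.97, 87.8 and 91.4 CPM with PBS. The groups were wide apart and tight, with a coefficient of variation of 5.25% to 6.51% over the 4 groups, the narrowest range of the 9 genes. Jun fell 1.93-fold (log2 change -0.95 ± 0.06 SE, edgeR adjusted p = 1.45e-10; chr5:109893145-109897656, minus strand, mRatBN7.2). Jund, which is expressed steadily in most cells and is known to oppose JUN in cell division, had 131, 123, 119.6, 380.2 and 141.5 CPM with doxorubicin, against 121.5, 134, 141.5, 145.8 and 139.6 CPM with PBS. Replicate 4 was far above all others, which lay within or near the PBS range. The log2 change was 0.39 ± 0.25 SE (edgeR adjusted p = 0.209), and without replicate 4 it was -0.08 (edgeR adjusted p = 0.518; chr16:18734122-18735799, minus strand, mRatBN7.2).

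Egr1 and Nr4a1 did not pass with doxorubicin alone, and both calls depended on which libraries entered. Egr1 had 329.5, 333, 234, 214 and 318 CPM with doxorubicin, against 241, 271, 225.5, 232 and 272 CPM with PBS. Replicates 1, 2 and 5 of the doxorubicin group were above all PBS libraries, and replicates 3 and 4 were not. The log2 change was 0.20 ± 0.11 SE (edgeR adjusted p = 0.151). Without replicate 4 it was 0.29 (edgeR adjusted p = 0.0154), and without replicates 3 and 4 together 0.40 (edgeR adjusted p = 0.000386), which takes the number of the 9 genes that rose to 4. That fit kept PBS replicate 3, the lowest PBS library of both genes, at 225.5 CPM for Egr1 and 27.95 CPM for Nr4a1. Each of the 2 genes was lowest in replicate 3 in 3 of the 4 groups, so the removal was one-sided. Nr4a1 had 29.8, 29.9, 15.1, 26.4 and 24.3 CPM with doxorubicin, against 30.4, 32.7, 27.95, 32.4 and 29.3 CPM with PBS. Replicate 3 was far below the others. Its log2 change was -0.28 ± 0.13 SE (edgeR adjusted p = 0.0826), it passed without doxorubicin replicate 1 (-0.36, edgeR adjusted p = 0.0376) or replicate 2 (-0.35, edgeR adjusted p = 0.0400), and without replicates 3 and 4 it was -0.13 (edgeR adjusted p = 0.257). In mRatBN7.2 Egr1 lies at chr18:26462981-26466766 and Nr4a1 at chr7:132374840-132389297, both on the plus strand, and like the other genes of the set both are protein-coding.

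**Figure D2:**
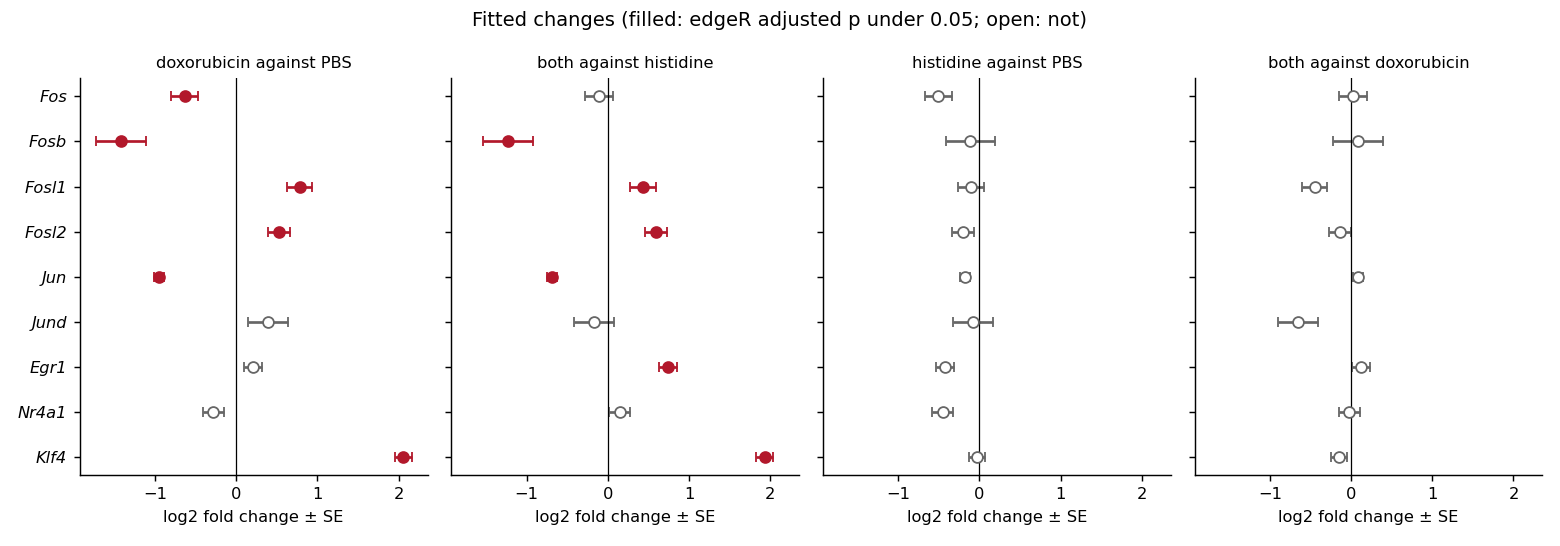
Fitted log2 fold change with its SE (horizontal axis) of the 9 genes in the 4 comparisons, filled where edgeR's adjusted p was under 0.05. Klf4, at 2.06 and 1.93, leads both comparisons of doxorubicin, and no gene is filled in the comparisons of histidine.

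The same drug was then compared in cultures that all received histidine. Adding doxorubicin to histidine raised Klf4, Egr1, Fosl2 and Fosl1 and lowered Jun and Fosb, so 6 of the 9 genes passed, where 40.0% of all genes did (19.8% higher, 20.2% lower). The libraries of the 2 groups did not overlap for 6 of the 9, which held for 35.2% of all genes (16.5% higher, 18.7% lower). Fos, Jund and Nr4a1 did not pass.

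Egr1 rose 1.68-fold. It had 288, 334, 275, 323 and 331 CPM with both compounds, against 184.5, 200.4, 167, 174 and 198 CPM with histidine. All libraries with both compounds were above all histidine libraries (log2 change 0.75 ± 0.11 SE, edgeR adjusted p = 1.86e-05). Klf4 averaged 217 ± 17.5 CPM with both compounds and 56.8 ± 8.41 CPM with histidine (SD, n = 5 each), a 3.82-fold rise (log2 change 1.93 ± 0.10 SE, edgeR adjusted p = 6.95e-12). Jun averaged 47.8 ± 2.80 CPM with both compounds and 76.8 ± 4.41 CPM with histidine (SD, n = 5 each), a 1.61-fold fall (log2 change -0.68 ± 0.06 SE, edgeR adjusted p = 1.80e-08). These 3 genes separated the groups in every library.

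In the FOS family, Fosb averaged 1.32 ± 0.326 CPM with both compounds and 3.09 ± 0.927 CPM with histidine (SD, n = 5 each), a 2.34-fold fall (log2 change -1.22 ± 0.31 SE, edgeR adjusted p = 0.00329). Fosl2 averaged 113.5 ± 18.9 CPM with both compounds and 75.1 ± 9.61 CPM with histidine (SD, n = 5 each; log2 change 0.60 ± 0.13 SE, edgeR adjusted p = 0.00131). Fosl1 had 45.55, 36.2, 50.6, 43.6 and 48.3 CPM with both compounds, against 36.1, 34.5, 33.4, 34.4 and 27.6 CPM with histidine. The groups were adjacent, with replicate 2 of the first just above replicate 1 of the second. Its log2 change of 0.43 ± 0.16 SE (edgeR adjusted p = 0.0311) did not pass without histidine replicate 5 (0.0814) or without replicate 1 (0.0537), 3 (0.0745) or 5 (0.0652) of both compounds, all edgeR adjusted p. Fos had 20.75, 22.6, 17.1, 22.4 and 20.35 CPM with both compounds, against 21.6, 28.6, 14.0, 23.75 and 23.3 CPM with histidine. The groups overlapped (log2 change -0.11 ± 0.17 SE, 95% interval -0.47 to 0.25, edgeR adjusted p = 0.661). The 95% interval was -0.13 to 0.42 for Nr4a1 and -0.69 to 0.35 for Jund.

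Histidine alone was compared with PBS to ask what the amino acid does without the drug. None of the 9 genes passed edgeR's test, as was the case for 0% of all 15449 genes; 308 genes had an unadjusted p under 0.05, and DESeq2 called 5 genes, none of them among the 9. The estimates of all 9 genes were below 0, with a median of -0.18, while 51% of all genes were below 0 with a median of 0. For Egr1, Jun and Nr4a1 every histidine library was below every PBS library; 0.841% of all genes had groups that did not overlap (0.395% higher, 0.447% lower).

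Egr1 had 184.5, 200.4, 167, 174 and 198 CPM with histidine, against 241, 271, 225.5, 232 and 272 CPM with PBS. A gap from 200.4 to 225.5 CPM lay between the groups. Its log2 change was -0.42 ± 0.11 SE (edgeR unadjusted p = 0.00115, adjusted p = 1). Nr4a1 had 22.65, 24.5, 21.3, 23.1 and 19.95 CPM with histidine, against 30.4, 32.7, 27.95, 32.4 and 29.3 CPM with PBS. Again no library overlapped (log2 change -0.45 ± 0.13 SE, edgeR unadjusted p = 0.00225, adjusted p = 1). Jun had 79.7, 80.4, 71.05, 79.7 and 73.0 CPM with histidine, with its highest library just under the lowest PBS library of 80.97 CPM (log2 change -0.18 ± 0.06 SE, edgeR unadjusted p = 0.00735, adjusted p = 1). Fos averaged 22.2 ± 5.29 CPM with histidine and 31.6 ± 3.50 CPM with PBS (SD, n = 5 each), with 4 of 5 histidine libraries below all PBS libraries (log2 change -0.50 ± 0.17 SE, edgeR unadjusted p = 0.00753, adjusted p = 1). The other 5 genes had estimates between -0.20 and -0.03.

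The Egr1 and Nr4a1 calls turned with the doxorubicin libraries, which enter this comparison only through the shared estimate of spread. Without doxorubicin replicates 3 and 4, edgeR called 3 genes between histidine and PBS, 2 of them lower, and these were Egr1 and Nr4a1 (adjusted p = 0.0389 each). Replicate 3 did not stand apart on the second principal component, at -11.7, and was singled out by low values of Fos, Fosb and Nr4a1. Leaving it out narrows the spread of genes under test, so this pass is no independent support. The fit of the histidine and PBS libraries alone gave an edgeR adjusted p of 0.220 for both genes, DESeq2 gave adjusted p-values of 0.321 for Egr1 and 0.475 for Nr4a1, and over all alternatives the adjusted p of either gene ran from 0.0389 to 1. Summed macrophage and leukocyte markers had overlapping ranges in the histidine and PBS groups, as given above. Fibroblast sums overlapped at 60160 to 79790 CPM with histidine and 75800 to 83490 CPM with PBS. Cardiomyocyte sums overlapped at 934.5 to 1101 CPM with histidine and 1038 to 1180 CPM with PBS. No marker of these 3 lists passed in this comparison, where 0% of all genes did, and the part of cell composition was not tested.

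Histidine was also compared in the presence of the drug. None of the 9 genes passed between both compounds and doxorubicin alone, as was the case for 0% of all genes by edgeR, with 1911 genes at an unadjusted p under 0.05; DESeq2 called 20 genes, none among the 9. None of the 9 had groups that did not overlap, and 1.06% of all genes did (0.563% higher, 0.492% lower). Fosl1 averaged 44.9 ± 5.54 CPM with both compounds and 61.3 ± 21.3 CPM with doxorubicin (SD, n = 5 each; log2 change -0.45 ± 0.16 SE, edgeR adjusted p = 0.399), and -0.14 without doxorubicin replicates 3 and 4. Jund had 116, 84.4, 128, 118 and 124 CPM with both compounds, against 119.6 to 380.2 CPM with doxorubicin, and the ranges overlapped (log2 change -0.65 ± 0.25 SE, edgeR adjusted p = 0.399), and -0.21 without replicates 3 and 4. For Jun the 95% interval of the log2 difference was -0.05 to 0.21, for Klf4 -0.36 to 0.06, for Egr1 -0.12 to 0.35, for Nr4a1 -0.30 to 0.25 and for Fos -0.33 to 0.38.

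The interaction, which asks whether the histidine difference with the drug departs from that without it, passed for none of the 9 genes (0% of all genes by edgeR; 1033 genes at an unadjusted p under 0.05; 15 genes by DESeq2, none among the 9). The estimates furthest from 0 by p were Egr1 at 0.54 ± 0.16 SE (edgeR unadjusted p = 0.00264, adjusted p = 0.635) and Jun at 0.26 ± 0.09 SE (edgeR unadjusted p = 0.00667, adjusted p = 0.635). Nr4a1 stood at 0.43 ± 0.18 SE and Fos at 0.53 ± 0.24 SE, each with an edgeR adjusted p of 0.635. Without doxorubicin replicates 3 and 4 the interaction was 0.35 for Egr1, 0.23 for Jun, 0.27 for Nr4a1 and 0.36 for Fos, each with an edgeR adjusted p of 0.9885. For Egr1 the histidine estimate was 0.12 in the presence of the drug, or -0.0754 without those 2 libraries, and -0.42 in its absence, and the difference did not pass either way.

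**Figure D3:**
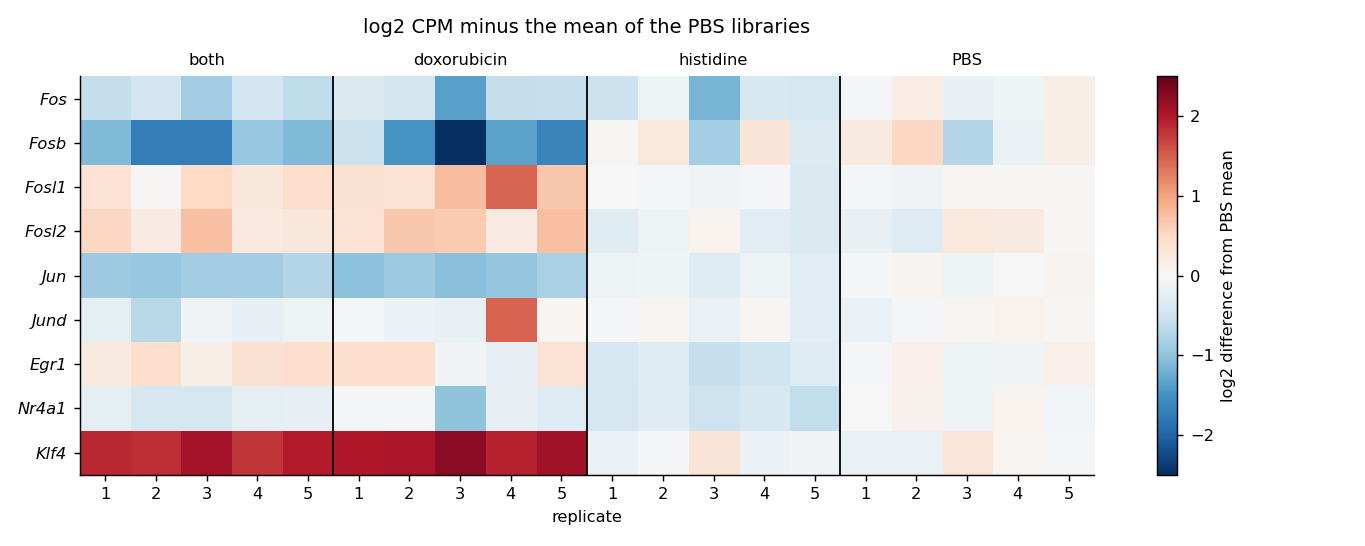
Log2 CPM of the 9 genes in each of the 20 libraries, minus the mean of the PBS libraries (colour scale; rows are genes, columns are replicates 1 to 5 of each group). Klf4 is high and Jun low in all 10 libraries with doxorubicin, while the Jund rise is 1 library, doxorubicin replicate 4.

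The FOS family was also read in FPKM, as the sum of its 4 genes and the share of each. The 4 genes summed to 51.9 ± 5.05 FPKM with both compounds, 57.9 ± 3.67 FPKM with doxorubicin, 39.7 ± 3.01 FPKM with histidine and 47.9 ± 2.51 FPKM with PBS (SD, n = 5 each). The sum was 53.4 to 62.9 FPKM with doxorubicin, above all PBS libraries, and 37.1 to 44.6 FPKM with histidine, below all PBS libraries, which lay at 44.9 to 50.2 FPKM. Fos held 17.6% to 29.5% of that sum with both compounds, 13.2% to 27.5% with doxorubicin, 21.6% to 37.1% with histidine and 32.2% to 44.9% with PBS. Each group with doxorubicin was thus below the PBS range, and the histidine range overlapped both. Fosl2 held 51.4 ± 4.79% with both compounds, 50.7 ± 8.09% with doxorubicin, 43.4 ± 6.07% with histidine and 40.8 ± 5.92% with PBS. Fosl1 held 23.4 ± 1.95% with both compounds, 27.8 ± 8.42% with doxorubicin, 21.8 ± 2.00% with histidine and 19.1 ± 0.589% with PBS. Of the sum of Jun and Jund, Jun held 12.1% to 16.7% with both compounds, 4.19% to 12.3% with doxorubicin, 17.5% to 19.6% with histidine and 17.55% to 20.5% with PBS. The drug groups were below the others in every library. Shares of a sum follow from the levels above and were given no test.

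**Figure D4:**
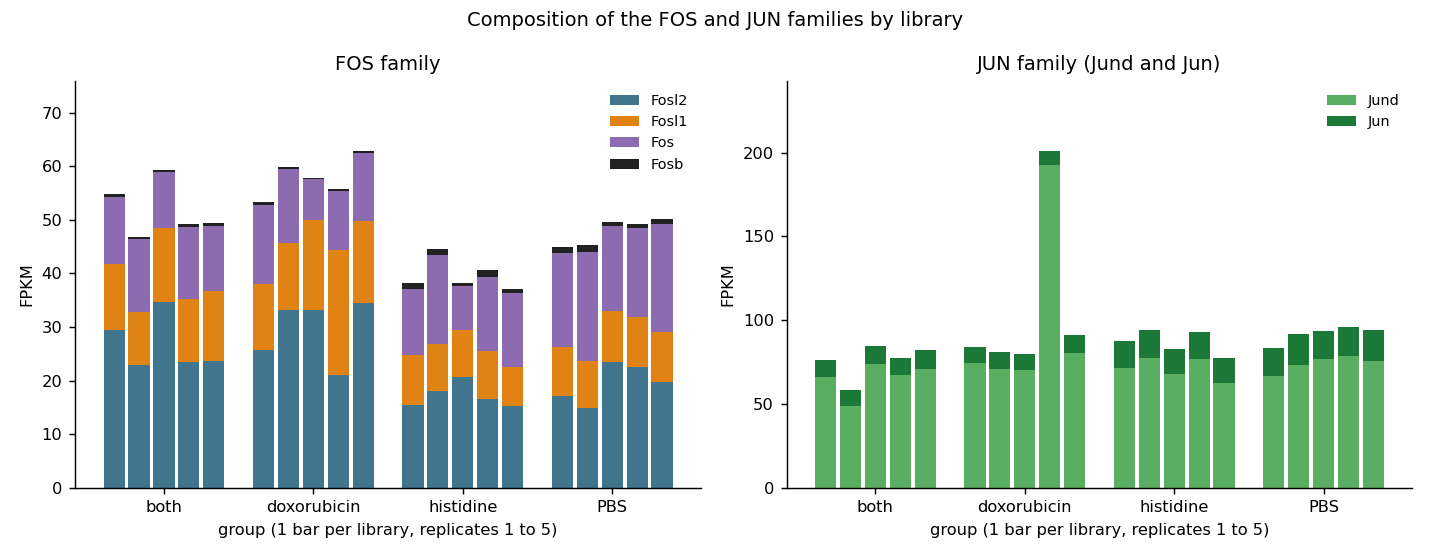
FPKM of the FOS genes (left) and of Jund and Jun (right), stacked within each library, 5 bars per group. Fosl2 makes up the largest share of the FOS family on average in every group, 50.7% with doxorubicin and 40.8% with PBS, and the tall bar at right is doxorubicin replicate 4.

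Other genes of the pathway were read from lists chosen by function, with earlier results of these data known. Of 20 measured other immediate-early genes, 8 rose and 8 fell with doxorubicin against PBS, where 21.6% of all genes rose and 21.4% fell (median log2 change -0.07, beside 0.05 over all genes). These shares of all genes and their median stand beside each list below for this comparison, and no list was tested against them. Ier5, an immediate-early response gene, averaged 75.3 ± 4.10 CPM with doxorubicin and 30.4 ± 1.10 CPM with PBS (SD, n = 5 each; log2 change 1.31 ± 0.08 SE, edgeR adjusted p = 8.75e-11). Btg2, which slows cell division, averaged 69.0 ± 7.73 CPM with doxorubicin and 37.7 ± 1.21 CPM with PBS (log2 change 0.87 ± 0.07 SE, edgeR adjusted p = 4.00e-09). Atf3, a stress-induced partner of JUN proteins that is also in the AP-1 partner list, averaged 1.47 ± 0.506 CPM with doxorubicin and 13.6 ± 1.80 CPM with PBS (log2 change -3.21 ± 0.22 SE, edgeR adjusted p = 2.32e-10). With histidine against PBS, 18 of these 20 genes had an estimate below 0 (median -0.08, beside 0 over all genes) and none passed; the smallest unadjusted edgeR p-values were 0.00473 for Btg2 (log2 change -0.23), 0.0125 for Csrnp1 (-0.22) and 0.0549 for Gem (-0.29).

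Of 17 measured kinases and factors upstream, 2 rose and 2 fell with doxorubicin against PBS (median -0.03), beside the same shares of all genes. Map2k1, the kinase that activates ERK, had a log2 change of 0.42 ± 0.08 SE (edgeR adjusted p = 0.00025) and Map2k4, which activates JNK, one of 0.45 ± 0.10 SE (edgeR adjusted p = 0.00105). Mapk14, the stress kinase p38 alpha, fell (log2 change -0.25 ± 0.06 SE, edgeR adjusted p = 0.0011). Of 14 feedback inhibitors 5 rose and 4 fell (median 0.06). Among them the phosphatase genes of MAP kinases split: Dusp4 averaged 48.1 ± 4.82 CPM with doxorubicin and 27.2 ± 0.979 CPM with PBS (log2 change 0.82 ± 0.08 SE, edgeR adjusted p = 9.32e-08), Dusp5 rose by a log2 change of 0.85 ± 0.14 SE (edgeR adjusted p = 7.24e-05), and Dusp1 fell (log2 change -0.48 ± 0.08 SE, edgeR adjusted p = 5.84e-05).

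Of 9 AP-1 partners 1 rose and 4 fell with doxorubicin (median -0.23), beside 21.6% and 21.4% of all genes. Maf averaged 14.6 ± 1.05 CPM with doxorubicin and 47.5 ± 2.33 CPM with PBS (SD, n = 5 each; log2 change -1.70 ± 0.08 SE, edgeR adjusted p = 1.91e-12). It encodes a zipper protein that macrophages also express, and the macrophage and leukocyte markers fell alongside, as given above; their part was not tested. Of 14 genes known as AP-1 targets 9 rose and 3 fell (median 0.69), beside 21.6% and 21.4% of all genes. Il6, a cytokine, averaged 113.8 ± 34.1 CPM with doxorubicin and 10.7 ± 1.73 CPM with PBS (log2 change 3.41 ± 0.31 SE, edgeR adjusted p = 3.73e-08), and Ccnd1, cyclin D1, 389 ± 91.5 CPM with doxorubicin and 142.7 ± 4.56 CPM with PBS (log2 change 1.45 ± 0.11 SE, edgeR adjusted p = 2.58e-09). Plau, which encodes urokinase, fell (log2 change -2.64 ± 0.17 SE, edgeR adjusted p = 1.11e-10). Of the 6 factors that bind AU-rich elements and set the decay of short-lived mRNAs, 0 rose and 4 fell (median -0.28), with Zfp36l2 at a log2 change of -0.52 ± 0.06 SE (edgeR adjusted p = 1.66e-07), Hnrnpd at -0.50 ± 0.13 SE (edgeR adjusted p = 0.00476) and Khsrp at -0.26 ± 0.09 SE (edgeR adjusted p = 0.0212).

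The lists were read in the same way in the other comparisons. With both compounds against histidine, where 19.8% of all genes rose and 20.2% fell, 7 of the 20 other immediate-early genes rose and 6 fell, 3 of 17 upstream genes rose and 1 fell, 4 of 14 feedback inhibitors rose and 2 fell, 1 of 9 AP-1 partners rose and 4 fell, 6 of 14 AP-1 targets rose and 3 fell, and 1 of 6 decay factors rose and 2 fell. None of the genes in these lists passed edgeR's test in histidine against PBS, in both compounds against doxorubicin or in the interaction, where 0% of all genes did. In histidine against PBS the smallest unadjusted edgeR p-values were 0.0888 for Creb1 among the upstream genes (log2 change 1.14), 0.105 for Nab1, an inhibitor of EGR proteins (0.12), 0.2295 for Atf7 among the AP-1 partners (-0.15), 0.023 for the cytokine gene Lif among the AP-1 targets (-0.25) and 0.142 for Zfp36l2 (-0.08). The Creb1 estimate had an SE of 0.63, and its histidine libraries, at 3.93 to 39.25 CPM, spanned the whole PBS range of 6.01 to 10.27 CPM.

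Genes whose centred log2 CPM lay closest to a member over the 20 libraries were sought among 8036 candidates, by the root-mean-square difference. For Fos they were Lims2 (0.25), Col3a1 (0.26) and Col1a2 (0.28), the last 2 being fibrillar collagen genes. Their mean log2 differences from PBS were -0.60, -0.84 and -0.83 with doxorubicin, where Fos had -0.67. With histidine they were only -0.20, -0.18 and -0.15, where Fos had -0.53. For Egr1 they were Rabgap1l (0.18), Svil (0.18) and Notch1 (0.19). For Fosl1 they were Oaf, Vat1 and Tax1bp3, at 0.11 to 0.12. The closest gene to Fosl1, Oaf, had a mean log2 difference from PBS of 0.33 with both compounds, 0.69 with doxorubicin and -0.06 with histidine, where Fosl1 had 0.32, 0.72 and -0.11. This likeness covers libraries of only 4 groups that share treatments, depth and composition, and is a description.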

How the data were processed

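RNA sequencing covered 20 libraries, 5 for each of the 4 groups, with group and replicate number taken from the sample titles. Per the labels' protocols, mRNA was captured on oligo(dT) beads and copied from random hexamers with a kit in which no step marks strand, so a gene and an overlapping antisense gene share reads. Per the submitters' processing notes, Trimmomatic was used and the build is mRatBN7.2; aligner, counter and annotation version: not given in the sources used here. Raw read counts per gene, in whole numbers, were deposited next to FPKM values that the authors had scaled to gene length and library reads, per the file headers. Every per-sample column was matched to a sample through the library name in its label.

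The 10 genes, the pathway lists, the marker lists and the rule for named genes were chosen with earlier results of these data known. Rows were named from the protein accession, then the protein name, then the KEGG name, with symbols of RefSeq (GRCr8); 10360 of 15503 genes received one, and 397 rows whose symbol fell on several rows were left unnamed. Of the 9 genes, 8 were found by KEGG name and Nr4a1 by protein accession. Values of genes with close paralogs are uncertain where reads could be split.

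Counts were filtered with filterByExpr, which left 15449 genes, scaled by TMM and tested with edgeR's quasi-likelihood F test (edgeR 4.0.16, R 4.3.3) in 1 fit of all 4 groups. P-values were two-sided and adjusted by the Benjamini-Hochberg method over all genes, with a threshold of 0.05. The SE is the size of the log2 change over the square root of F, and the 95% intervals come from it. CPM serve comparisons within a gene and FPKM comparisons between genes. Pathway genes were named by the up to 3 smallest p-values per list with a mean of at least 5 CPM, in doxorubicin against PBS and in histidine against PBS; for the lists after the first, only the smallest is printed in histidine against PBS. A gene that the rule took is not reported here. Alternatives were RLE and upper quartile scaling, DESeq2 1.42.0, limma 3.58.1 on log2(FPKM + 0.1) and log2(FPKM + 1), no filter, a filter of at least 10 CPM in 5 libraries, only the groups compared, a replicate block, each library left out, and doxorubicin replicates 3 and 4 left out together. The scripts were tested on simulated counts. Promoter motifs were searched in the 250 bases upstream of each RefSeq start.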

Additional observations from a re-analysis of the deposited data

Results flagged for a closer look

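Each of the 36 sets of 5 libraries (9 genes in 4 groups) was examined for a library far from the rest. Dixon's criterion with a critical value of 0.71 was used, and 3 were found. For independent sets of normally distributed values chance gives about 1 in 20. These sets share the same libraries, so that rate need not hold here, and no share over all genes was computed. Jund stood at 380.2 CPM in doxorubicin replicate 4, where the other doxorubicin libraries lay at 119.6 to 141.5 CPM. Jund stood at 84.4 CPM in replicate 2 of both compounds, where the others lay at 116.2 to 128.4 CPM. Klf4 stood at 71.37 CPM in histidine replicate 3, where the others lay at 50.83 to 55.69 CPM; PBS replicate 3 was also the highest of its group, at 70.5 CPM.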

How the results depend on the processing

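Over the 10 alternatives that leave out no single library, 422 of 436 member results kept their direction and their side of the threshold, 10 reversed and 4 newly passed. The 6 calls in each comparison of doxorubicin held under all of them, except that Fosb could not be tested under the filter of at least 10 CPM. The number of genes past the test between histidine and PBS was 5 with DESeq2, 1 with limma on log2(FPKM + 1) and 3 without doxorubicin replicates 3 and 4, where 2 of the 9 genes passed; leaving out single libraries it was 0 to 1. Between both compounds and doxorubicin it was 20 with DESeq2, 1 without replicates 3 and 4, and 0 to 6 over single libraries; for the interaction 15 with DESeq2 and 0 to 2. Reversed log2 changes were all of genes not past the test. With limma, Klf4 in histidine against PBS was 0.008 (FPKM + 0.1) and 0.0077 (FPKM + 1), and Nr4a1 in both compounds against doxorubicin was 0.0467 and 0.0401. Without doxorubicin replicates 3 and 4, Jund in doxorubicin against PBS was -0.0488, both compounds against doxorubicin gave -0.15 for Fos, -0.15 for Fosb and -0.0754 for Egr1, and the Fosb interaction was -0.037. Leaving out single libraries, the ranges were -0.12 to 0.055 for Klf4 and -0.26 to 0.0305 for Fosb in histidine against PBS, -0.16 to 0.0481 for Nr4a1, -0.11 to 0.10 for Fos and -0.10 to 0.39 for Fosb in both compounds against doxorubicin, -0.0834 to 0.51 for Jund in doxorubicin against PBS, and -0.0272 to 0.15 for the Fosl2 interaction. The cause was not tested.

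Same-numbered libraries deviated together, with r over 0.1, in 2 of 30 pairs (range -0.077 to 0.193), so the numbers were not taken to pair the samples. This r covers all genes and does not settle pairing for the 9, of which Fos, Fosb and Klf4 shared extremes in replicate 3, as given below. Fitting replicate as a block gave SEs of 0.11 for Fos and 0.06 for Klf4 in doxorubicin against PBS, beside 0.17 and 0.10 without it. With the replicate block, 6560 genes and 7 of the 9 passed in doxorubicin against PBS; the added gene was Nr4a1 (log2 change -0.30, edgeR adjusted p = 0.0397), and its change in both compounds against doxorubicin was 0.0022. Depth limits Fosb most, with 41 reads in its lowest library.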

Other observations

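Across the 9 genes, replicate 3 often held a group's extreme value, a pattern noticed after the values were seen and given no test. Fos and Fosb were lowest in replicate 3 in all 4 groups, and Klf4 was highest there in all 4. Fos stood in replicate 3 at 17.1 CPM with both compounds, 12.3 CPM with doxorubicin, 14.0 CPM with histidine and 27.8 CPM with PBS. Klf4 stood there at 243 CPM with both compounds, 272 CPM with doxorubicin, 71.4 CPM with histidine and 70.5 CPM with PBS. Jun, Egr1 and Nr4a1 were lowest in replicate 3 in 3 of the 4 groups each. Over all genes the replicate 3 libraries of histidine and PBS deviated together at r = 0.193, the highest of the 30 pairs.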
